A study of Drosophila melanogaster with 2 samples.

Results

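HmgD and HmgZ are neighbouring Drosophila melanogaster genes on chromosome arm 2R that overlap in opposite directions, and their locus held 9 of the 3254 peaks at which the zinc finger protein Wdn (wings down) was recovered from embryonic chromatin. The locus was taken as the span of both genes plus 2 kb on either side, 23240 bp from 21695488 to 21718727 on the dm6 build, and every peak whose summit fell in it was followed through all deposited lists. HmgD and HmgZ are 2 of 18277 annotated genes. The locus was chosen by the signal value of its strongest Wdn peak, so the height and number of its peaks are given as descriptions, with no test.

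The measurements came from chromatin immunoprecipitation with sequencing (ChIP-seq), in which DNA fragments bound by a protein are recovered with an antibody, sequenced and summarised as peaks. Chromatin of whole embryos aged 0 to 24 hours, from the transgenic strain wdn-GFP that makes a fusion of Wdn with eGFP, was sonicated to a size range of 200 to 800 and precipitated with an anti-GFP antibody. There was 1 group of 2 biological replicates of the same strain, and a control library was not analysed here. The labels do not say whether the fusion adds to or replaces the wild-type protein. The embryos span all of embryogenesis and all tissues, so binding in fewer cells and weaker binding per cell cannot be told apart.

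HmgD and HmgZ encode small chromatin proteins of the HMGB type. Each has an HMG box, a fold that enters the minor groove of DNA with little sequence preference and bends it sharply, followed by a basic and acidic tail. HmgD is abundant in the chromatin of the early fly embryo, which is poor in somatic linker histone. Wdn belongs to the C2H2 zinc finger proteins, a class whose fingers read DNA sequence in the major groove.

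The gene pair is arranged so that the 5' part of each gene lies inside the other. HmgZ (FBgn0010228) runs on the minus strand from 21697488 to 21707861, and HmgD (FBgn0004362) runs on the plus strand from 21701458 to 21716727. They share 6404 bp. Each gene has 4 annotated transcripts from 3 starts, each transcript has 3 exons, and the coding sequence sits in the last 2 of them, at the outer ends of the pair. HmgD starts at 21701458 (transcript RD), 21713356 (RA and RC) and 21714136 (RB), and HmgZ at 21702830 (RA and RC), 21704501 (RB) and 21707861 (RD). The start of HmgD-RD therefore lies within the introns of HmgZ, and all 3 starts of HmgZ lie within the long first intron of HmgD-RD. The encoded proteins have 112 and 111 residues, and 74 of 114 aligned positions (64.9%) are identical. Also in the window are lncRNA:CR44749 and CG30403, both inside the first intron of HmgD-RD, and the ends of CngB, which encodes a subunit of a cyclic nucleotide-gated channel, of Tango11 and of CG30398.

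Most of the listed Wdn peaks lay in the non-coding interior that the 2 genes share. The main list, which the authors made from both replicates by the irreproducible discovery rate (IDR, the estimated share of irreproducible peaks among those ranked at least as high), placed 9 summits here, numbered 1 to 9 along the plus strand. Of these, 7 lay inside HmgZ, 8 inside HmgD and 6 inside both genes, and 0 fell in a coding exon. The coding exons hold only 112 codons in HmgD and 111 in HmgZ, in a window of 23240 bp. The share of all main-list summits in coding exons was not counted. Within 500 bp of an annotated start were 5 of the 9 summits, 3 at starts of HmgZ, 1 at a start of HmgD and 1 at lncRNA:CR44749. The other 4 were further from any start, and 52.5% of summits in the whole main list were within 500 bp of one. Of 31 peaks that were ranked in the locus, 9 were in the main list (29.0%), against 2.46% of all ranked peaks. The 95% exact Clopper-Pearson interval, 14.2 to 48.0%, covers counting error only. It takes neighbouring peaks as independent, although sites 5 and 6 overlap. Because the locus was chosen by its signal, the interval is no test against the 2.46%.

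**Figure D1:**
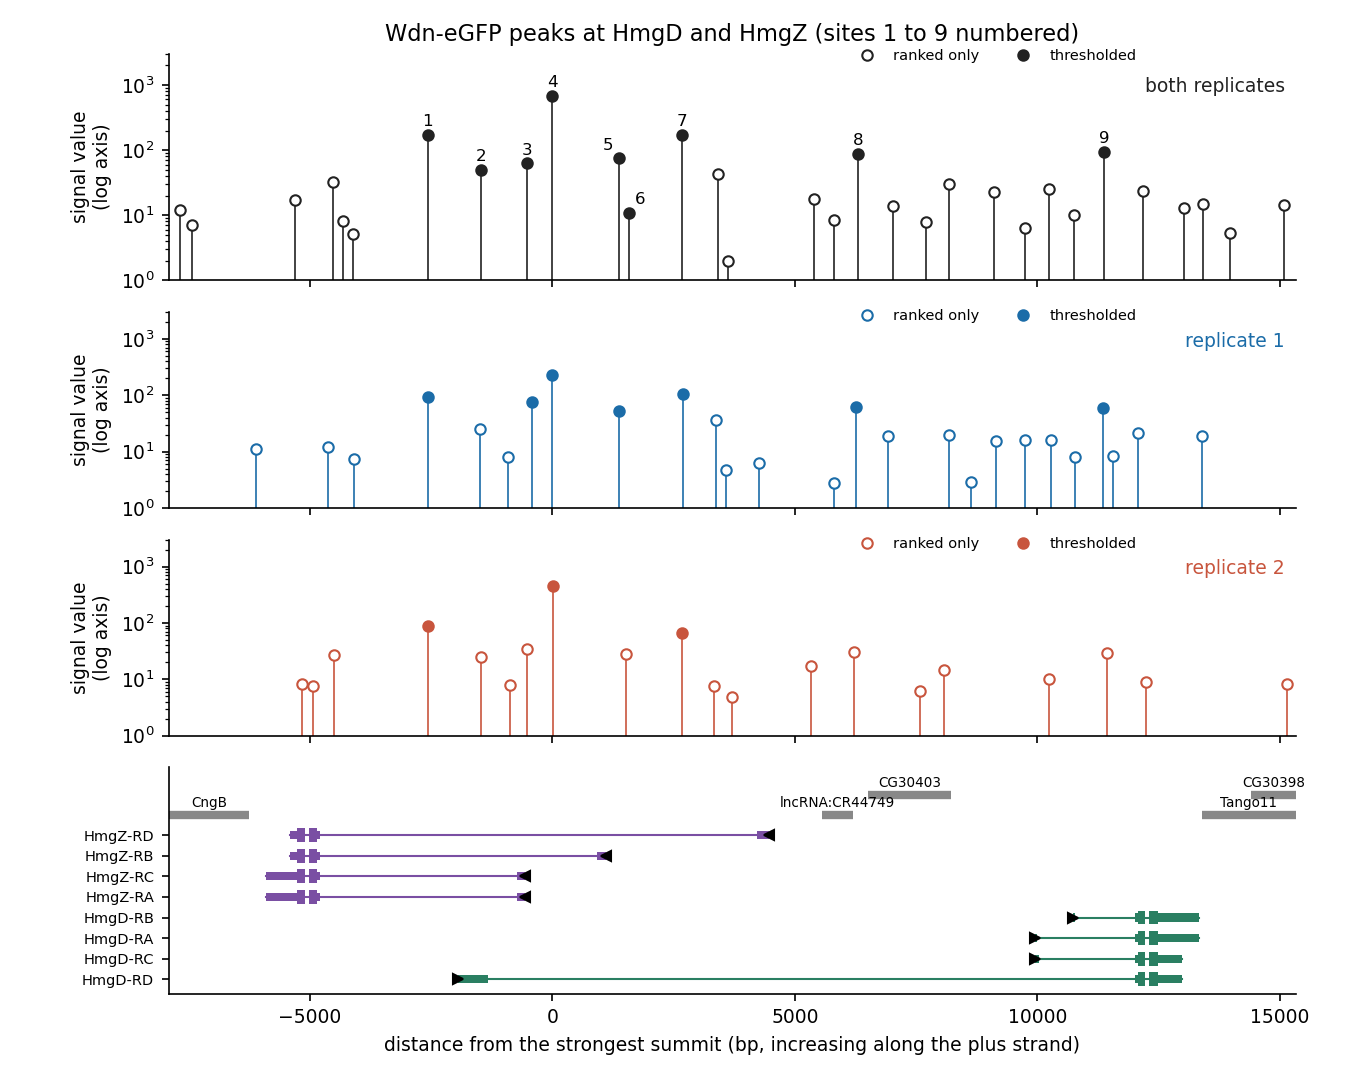
Signal value of each peak (log axis) against distance from the strongest summit in bp, for the lists of both replicates, replicate 1 and replicate 2, with filled points for peaks in the thresholded list and open points for peaks that were ranked only. The lowest panel shows the transcripts (boxes are exons, taller where coding, arrowheads mark starts) and, in grey, other genes: sites 1 to 7 crowd into 5238 bp around the inner starts, and sites 8 and 9 stand apart on the HmgD side.

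In the main list the starts of HmgZ carried more peaks than those of HmgD, 3 against 1. Replicate 2 alone listed none within 500 bp of any start of either gene. Site 3, at 21702883, lay 53 bp upstream of the HmgZ-RA and HmgZ-RC start with a signal value of 63.0 and an IDR of 4.67e-04. The signal value is the authors' own measure of peak height, and the median over the main list was 76.6, with quartiles of 58.2 and 117. At the HmgZ-RB start, sites 5 (21704768) and 6 (21704971) lay 267 and 470 bp upstream, with signals of 74.9 and 10.9. These peaks overlap by 101 bp, share their counterparts in each replicate and can be read as 1 site, and 57 peaks of the main list (1.75%) were as weak as site 6. The outermost start, HmgZ-RD, had no ranked peak within 500 bp in the main list, and replicate 1 had a single ranked one there, of signal 6.25 and IDR 0.883.

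The starts of HmgD held less in the main list. Site 2, at 21701931, lay 473 bp downstream of the HmgD-RD start, in the 607 bp first exon of that transcript, which is 5' UTR. Its signal of 50.3 and IDR of 0.00477 made it the least reproducible of the 9, and it was the one site absent from the conservative list, where its IDR was 0.0110. Neither of the downstream starts had a listed peak. The best ranked peak near the HmgD-RA and HmgD-RC start had a signal of 24.9 and an IDR of 0.260 at 283 bp downstream, which is also 497 bp upstream of the HmgD-RB start. In replicate 1 the best signal near the former start was 15.8 (IDR 0.706), and in replicate 2 it was 10.2 (IDR 0.931).

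The 3 highest peaks of the locus lay over 500 bp from every start. Site 4, at 21703397, had a signal of 687 and the lowest IDR the lists can show, 1.00e-05. It lies in introns of both genes, 567 bp upstream of the HmgZ-RA and HmgZ-RC start and 1939 bp downstream of the HmgD-RD start. Site 1 (21700823, signal 172) lay 635 bp upstream of the HmgD-RD start in an intron of HmgZ. Site 7 (21706061, signal 173) lay 1560 bp upstream of the HmgZ-RB start, again in introns of both genes. In the main list, sites 1 and 7 thus had nearly equal signals at similar offsets on either side of the strongest summit, -2574 and 2664 bp. Their order differed between the replicates, with 91.5 and 104 in replicate 1 and 87.3 and 66.0 in replicate 2.

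The remaining pair lay on the HmgD side alone. Site 8, at 21709694 with a signal of 88.6, was 99 bp upstream of the lncRNA:CR44749 start in the first intron of HmgD-RD. Site 9, at 21714769 with a signal of 94.0, was 633 bp downstream of the HmgD-RB start in the intron before the coding exons. The summed signal of the 9 sites was 1414, of which site 4 made up 48.6%. Its share was 34.0% of the listed signal of the locus in replicate 1 and 74.8% in replicate 2. The main list is cut by IDR, so its peaks precede the rest by construction. In the locus the last listed peak had an IDR of 0.00477. The best of the 22 peaks outside, at 21706812, had an IDR of 0.244 and a signal of 43.5. The signals of the 22 ranged from 2.00 to 43.5, a range that includes the 10.9 of site 6.

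Both replicates saw the strong sites, and replicate 1 saw more of the weak ones. Replicate 1 alone listed 7 peaks of 26 ranked in the locus (26.9%, against 2.82% of its whole ranking), and replicate 2 listed 3 of 20 (15.0%, against 2.11%). Without replicate 1 the locus thus held 3 listed peaks and without replicate 2 it held 7, against 9 in the main list. The conservative list held 8 of 28 (28.6%, against 2.20%). Sites 1, 4 and 7 were listed by both replicates, 8 of the 9 sites overlapped a listed peak of replicate 1, and site 2 was listed by neither. In the whole main list, 1273 of 3254 peaks (39.1%) were listed by both, 18.3% by replicate 1 alone, 13.6% by replicate 2 alone and 29.0% by neither.

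At sites 1 and 2 the replicates gave nearly the same signal. The signal of site 1 was 91.5 in replicate 1 and 87.3 in replicate 2 (89.4 ± 2.95, SD, n = 2). Site 2 had 25.4 and 25.0 (25.2 ± 0.237, SD, n = 2), with IDRs of 0.0821 and 0.0784. Both differences were small beside those at the other sites.

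Replicate 1 was higher at every other site but site 4. Site 3 had 76.2 in replicate 1 and 34.1 in replicate 2 (55.2 ± 29.7, SD, n = 2), and its IDR of 0.0107 in replicate 2 fell just outside the limit of 0.01000 that held for the listed peaks. Sites 5 and 6 had a common counterpart of 52.6 and 28.5 (40.5 ± 17.0, SD, n = 2), which replicate 2 ranked at an IDR of 0.322. Site 7 had 104 and 66.0 (85.2 ± 27.2, SD, n = 2), and both were listed. The gap was of a similar size at the outer sites. Site 8 had 60.5 and 29.9 (45.2 ± 21.6, SD, n = 2), and site 9 had 59.2 and 29.8 (44.5 ± 20.8, SD, n = 2). Of site 9, replicate 1 had 2 overlapping ranked peaks, and the one with the nearer summit is given, which is also the stronger.

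Site 4 went the other way, with 229 in replicate 1 and 456 in replicate 2 (343 ± 161, SD, n = 2). Over the 8 distinct pairs of counterparts replicate 1 was higher in 7 and replicate 2 in 1, yet the order of the sites was nearly shared, with a Spearman correlation of 0.98 across these 8 neighbouring sites of the same libraries. The summits of the counterparts were 4 bp apart at site 4, 10 bp at site 1 and 19 bp at site 7. They were up to 154 bp apart at the weaker ones, the widest gap being at sites 5 and 6.

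**Figure D2:**
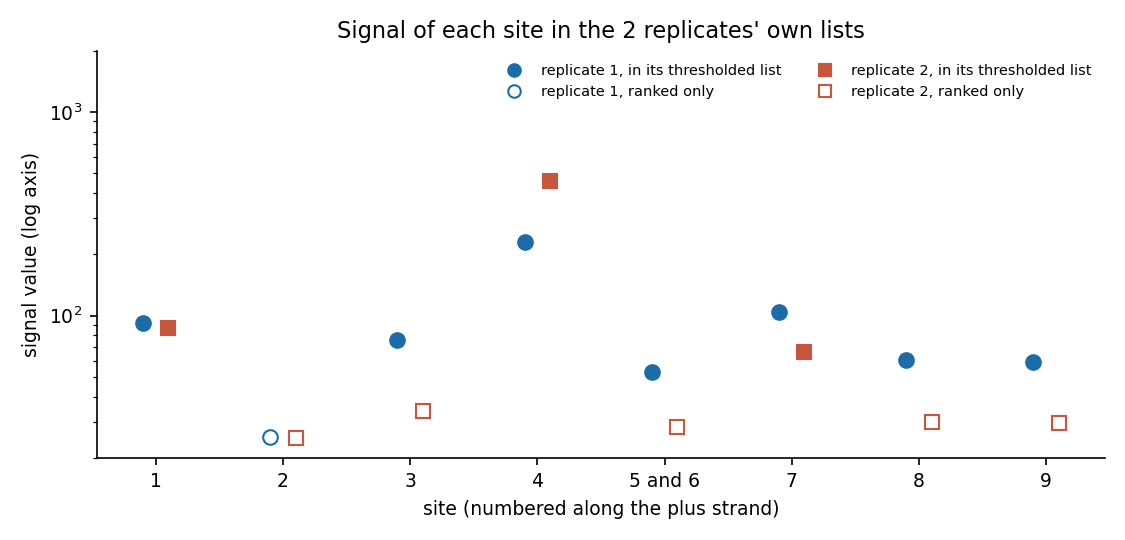
Signal value (log axis) of the counterpart of each site in replicate 1 (circles) and replicate 2 (squares), filled where the peak is in that replicate's thresholded list. Site 4 is the one site at which replicate 2 is the higher, and sites 3, 5 and 6, 8 and 9 are filled for replicate 1 and open for replicate 2.

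The balance between replicates at these sites was set beside that of the whole main list. Over 3184 peaks of the main list with a counterpart in both replicates, the log2 ratio of replicate 2 to replicate 1 signal had a median of -0.07 and quartiles of -0.51 and 0.32, so the signals of the 2 replicates lay on nearly the same scale. Site 4 had a log2 ratio of 0.99 (a ratio of 1.99), and 163 peaks of the main list had a higher one. Among the strongest 100 peaks of the list the median was 0.07, with quartiles of -0.14 and 0.27, and the ratio of site 4 was the highest of the 100, followed by 0.76. The log2 ratios of sites 3, 8 and 9 were -1.16, -1.01 and -0.99, all below the lower quartile of the list, as were those of sites 5 and 6 (-0.88) and site 7 (-0.66). The cause of the imbalance was not tested.

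**Figure D3:**
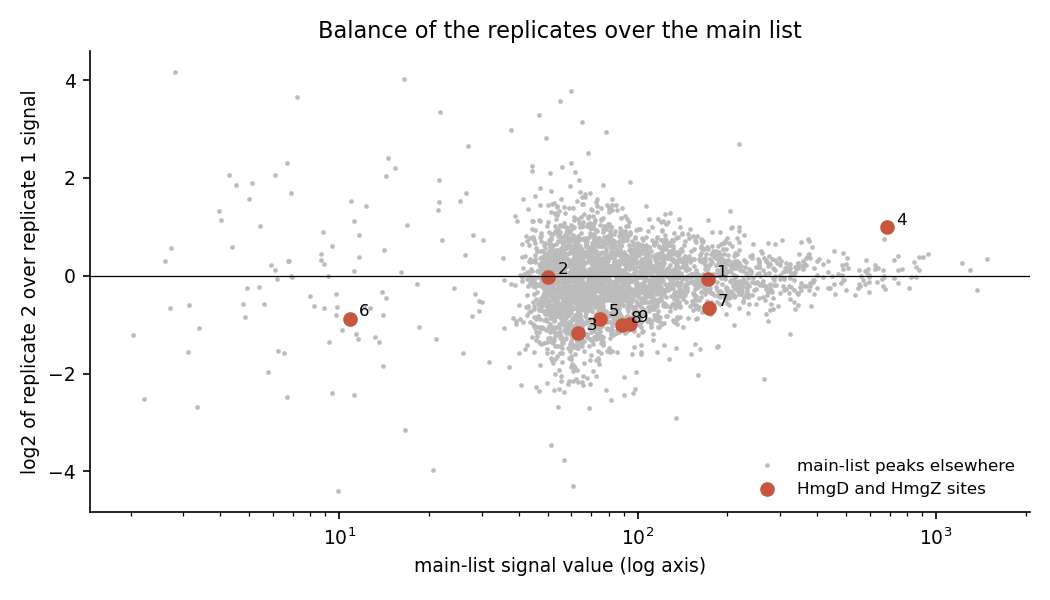
The log2 ratio of replicate 2 to replicate 1 signal against main-list signal (log axis) for peaks of the main list (grey) and the numbered sites of the locus (red). Site 4 lies above every other peak among the strongest 100, at 0.99 where the next has 0.76. All other sites of the locus lie below 0, sites 1 and 2 only slightly (-0.07 and -0.02).

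The rank of the strongest peak followed the same imbalance. Site 4 ranked 20 of 3254 in the main list (top 0.615%) and 20 of 2722 in the conservative list (top 0.735%). It ranked 10 of 1796 in replicate 2 (top 0.557%) and 61 of 1996 in replicate 1 (top 3.06%), a mean of 1.81% ± 1.77 (SD, n = 2). Without replicate 2 the rank was thus at the top 3.06%. Among the 1543 main-list peaks over 500 bp from any start it ranked 5 (top 0.324%), and it also ranked 5 of 633 on its own chromosome arm.

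Site 4 was also the widest peak of each of the 4 thresholded lists. It spanned 434 bp in the main list, where 89.1% of peaks had the same width of 304 bp and the next widest had 338 bp. In replicate 1 it spanned 322 bp and the next widest 308 bp, and in replicate 2 it spanned 381 bp and the next widest 332 bp. Site 1 was at the other extreme with 76 bp, a width at which 8 main-list peaks (0.246%) were as narrow, and the other 7 sites had the common width of 304 bp. The counterparts of site 1 were not narrow, at 290 bp in replicate 1 and 284 bp in replicate 2, and the step that gave the 76 bp is not described in the sources used here.

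The sites were packed closely for genes of this length. Gaps between neighbouring summits ran from 203 to 5075 bp with a median of 1099 bp, and all 9 fell within 13946 bp. Beyond the genes, the next main-list summits were 5709 bp to the left, at 21691779 with a signal of 50.3, and 63990 bp to the right, at 21780717 with a signal of 53.9. The flanking 20 kb held 1 summit on the left and 0 on the right. When the genome was cut into 5916 tiles of the same length as the locus, 67.7% held 0 main-list summits, the mean was 0.549 and 1 tile (0.0169%) held at least 9. That tile lay on X at CHES-1-like, a forkhead factor gene. Fixed tiles divided the HmgD and HmgZ summits between 2 tiles that held 8 and 2, one flanking summit included.

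A count around each summit again placed CHES-1-like beside this locus. The cut-off was the highest count at the HmgD and HmgZ sites, so this locus is included by construction. Within 10 kb of a main-list summit there was a median of 1 other summit, and at the HmgD and HmgZ sites there were 3 to 8. Of 3248 summits, 12 (0.369%) had at least 8 neighbours. These were 4 summits of this locus and 8 at CHES-1-like.

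Counted by gene, HmgD had 9 summits within 2 kb and HmgZ had 8. Only 6 of 13968 protein-coding genes (0.0430%) reached 9, and 10 genes (0.0716%) reached 8. The others were all longer: CHES-1-like had 12 summits over 27.0 kb, and sbb, CG1677 and kirre had 10 each over 79.1, 125 and 394 kb. With 9 summits, shn, which encodes a zinc finger protein of Dpp signalling, spans 58.3 kb. Raf, Hr4 and Tlk had 8 each over 48.4, 66.0 and 69.8 kb. HmgD is 15.3 kb and HmgZ 10.4 kb long, against a median of 2164.5 bp over all protein-coding genes. The 2 genes share most of their sites, so their counts are not separate observations. In replicate 1 the counts were 7 for HmgD and 6 for HmgZ. Replicate 2 alone gave 3 for each, a count reached by 89 genes (0.637%), so the density of the locus rested largely on replicate 1 and on the joint list.

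**Figure D4:**
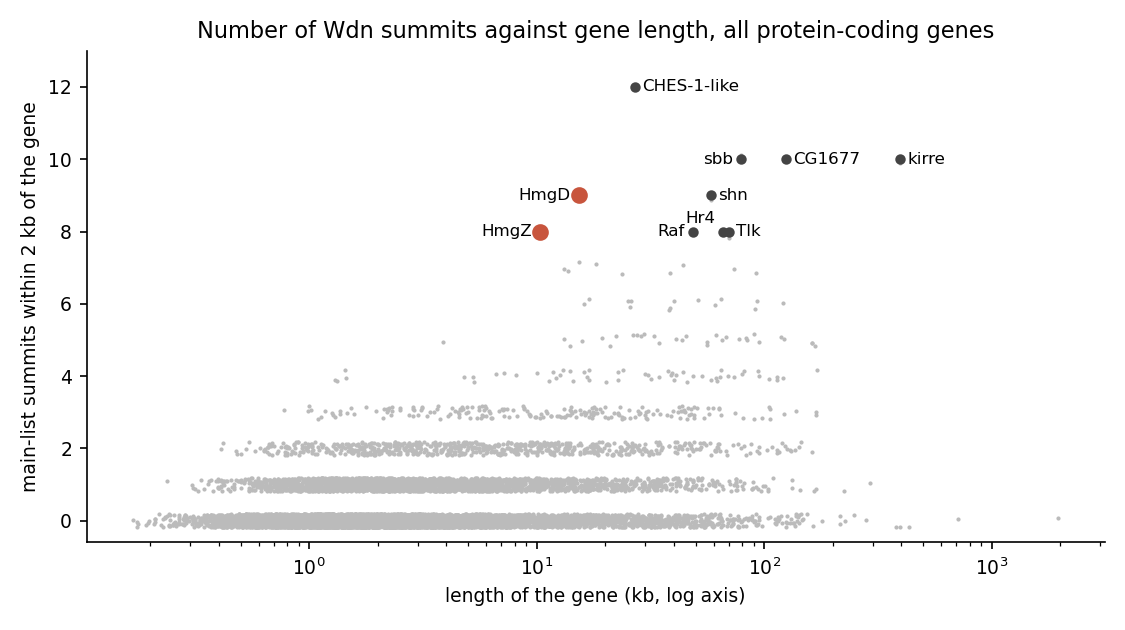
Number of main-list summits within 2 kb of each protein-coding gene (grey, spread slightly in height for visibility) against gene length in kb (log axis), with the genes of 8 or more summits named. HmgD with 9 and HmgZ with 8 (red) are the shortest of these genes, and among shorter genes outside the pair the highest counts were 7 below the length of HmgD and 5 below that of HmgZ.

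On average the DNA at the 9 sites had less A and T than that of the main list, although site 4 did not. Within 50 bp of the summit, the share of A and T averaged 50.4% ± 7.28 (SD over 9 sites), against 63.5% ± 10.8 over 3248 main-list summits and 53.2% ± 9.55 over 127248 ranked summits outside the list. Site 4 had 64.4% (percentile 45.3), slightly above the mean of the main list, followed by site 8 with 60.4% (percentile 33.2). The other 7 sites had 41.6 to 49.5%, at percentiles 2.96 to 12.1 of the main list. Site 7 was the lowest.

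Of 4 short words looked for on either strand in the same windows, 3 were found at none of the sites. The word TTAAAAA, present at 13.6% of main-list summits and 4.01% of ranked summits outside the list, occurred at 0 of the 9 sites. The same held for ACAGTGG, present at 3.66% and 1.39%, and for ATCGATA, a core of the promoter element bound by the factor DREF, present at 3.05% and 1.20%. The exception was the core of the GAGA factor element. GAGAG occurred at sites 7 and 9, against 10.3% of main-list summits and 12.5% of those outside. A match is a description of these windows and does not show which protein binds there.

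HMG-box genes as a family were often near a Wdn peak. The HMG-box list held 19 genes, and 11 of them (57.9%) had a main-list summit within 2 kb of the gene, against 28.3% of all protein-coding genes. Without HmgD and HmgZ it was 9 of 17 (52.9%). In the conservative list 11 of the 19 genes again qualified, or 9 of 17 without the pair, against 25.0% of protein-coding genes. At an IDR of at most 0.001 it was 8 of 19, or 6 of 17 without the pair, against 17.9%. In each replicate alone 6 of these 17 (35.3%) qualified, against 19.3% of genes in replicate 1 and 19.0% in replicate 2. The 17 genes are long, with a median of 6377 bp against 2164.5 bp, and a longer gene offers more room for a summit, a part that was not tested. Over the whole list 7 of the 19 genes had a summit within 500 bp of a start, against 14.9% of protein-coding genes. Without the pair, which was chosen by its signal, it was 5 of 17. In the conservative list 4 of the 19 genes had one, or 3 of 17 without the pair, against 13.1%. The count of 7 fell to 2 of 19 without replicate 1 and to 4 of 19 without replicate 2, so it is less certain than the count within 2 kb. The share of all protein-coding genes at a start was not counted in each replicate's own list. These 2 counts therefore cannot be read as above or below a background.

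In the main list none of the other HMG-box genes reached the signal of the pair, which was chosen by that signal, whereas in replicate 1 Sox14 was higher, at 281 against 229. Sox14, a Sox factor that acts in the ecdysone response, had 561 at 253 bp upstream of a start, with 281 in replicate 1 and 280.0 in replicate 2. Bap111, a subunit of the Brahma chromatin remodelling complex, had 323 (replicates 223 and 98.0) at 3121 bp downstream of its start, beyond the end of the gene. The signals of bbx, at 183 bp upstream of a start, were 266 (replicates 116 and 148). These 3 genes thus had a strong peak in both replicates, although the balance differed between them.

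Dsp1, the fly HMGB protein with a part in Polycomb silencing, had 3 summits, the strongest of signal 185 (replicates 129 and 46.9) at 818 bp upstream. The gene cic, which encodes the repressor Capicua, had 6 summits spread along a long gene, with a highest signal of 190.4 (replicates 86.5 and 104). Sox21b had 106, listed by replicate 2 alone (63.5), at 19706 bp downstream of a start. TFAM, the packaging protein of mitochondrial DNA, had 82.3, listed by replicate 1 alone (52.1), at 2167 bp downstream. Both summits lie beyond the end of the gene. The weakest were tHMG2 at 65.7 and Sox102F at 48.2, which neither replicate listed. The tHMG2 summit also lies beyond the end of its gene, 1635 bp downstream of a start. No main-list summit lay within 2 kb of Ssrp, tHMG1, pan, D, SoxN, Sox15, Sox21a or Sox100B.

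**Figure D5:**
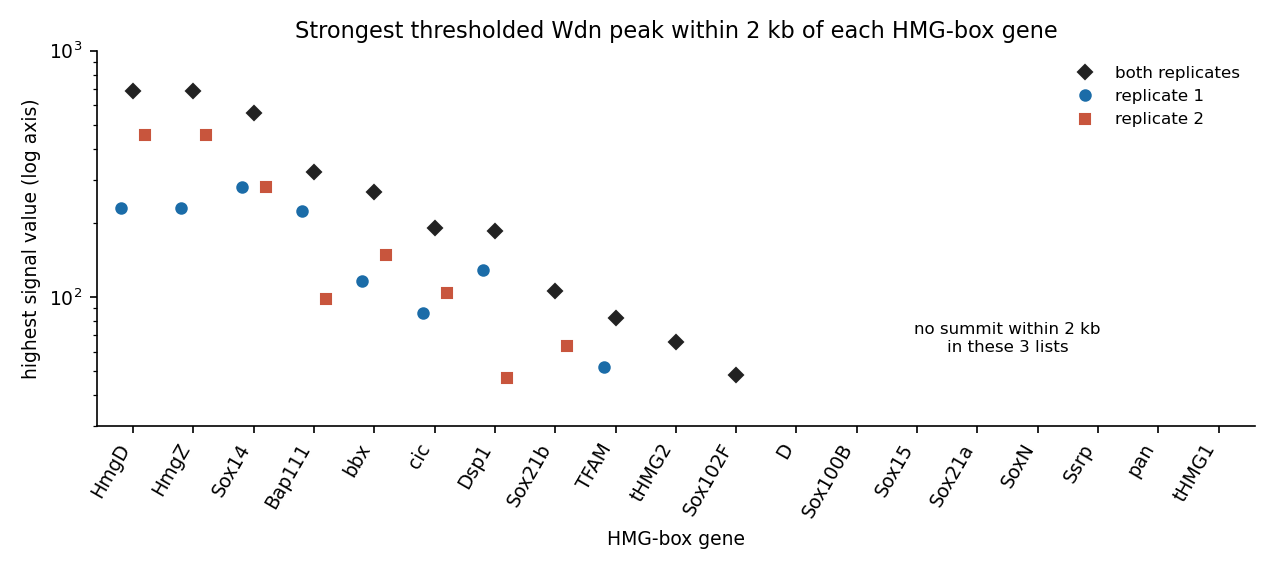
Highest signal value (log axis) of a thresholded peak within 2 kb of each of the 19 HMG-box genes in the list of both replicates (diamonds), replicate 1 (circles) and replicate 2 (squares). HmgD and HmgZ share their peak at 687, followed by Sox14 at 561, and 8 genes have no summit in these lists.

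Genes of chromatin proteins of the embryo, a list that shares HmgD, HmgZ, Dsp1 and Ssrp with the first, were counted in the same way. Of the 21 genes on this list, HmgD and HmgZ included, 11 (52.4%) had a main-list summit within 2 kb, and without the pair 9 of 19 (47.4%), against 28.3% of protein-coding genes. The count of 11 fell to 6 without replicate 1 and to 7 without replicate 2. Without the pair, 4 of 19 (21.1%) qualified in the list of replicate 2, against 19.0% of protein-coding genes, and 5 of 19 (26.3%) in that of replicate 1, against 19.3%, so in replicate 2 the share was near the background. Caf1-55, a histone-binding subunit of several chromatin complexes, had the highest signal, 879 (replicates 422 and 459), but the summit lies 3956 bp downstream of its start, at starts of other genes. The gene of heterochromatin protein HP1a (FBgn0003607) had 357 (169 and 186) at 1889 bp upstream. The histone variant gene His2Av had 149.7 (90.8 and 59.6) at 235 bp upstream of its start.

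Dsp1, described above, was also on this list. The other 5 with a summit were below the median signal of the main list, 76.6. Acf, a subunit of nucleosome-spacing complexes, had 72.4 at 193 bp upstream. The FACT subunit gene dre4 had 63.1, D1, which encodes an AT-hook protein of satellite DNA, had 60.3, Top2 had 56.2, and the gene of the largest subunit of chromatin assembly factor CAF-1 (FBgn0030054) had 49.8. The summits of D1 and FBgn0030054 lie beyond the ends of these genes, 3210 and 4947 bp downstream of a start. No main-list summit lay within 2 kb of BigH1, the embryonic linker histone, nor of the CAF-1 subunit gene FBgn0033526, of Df31, Nlp, Nph, Nap1, Iswi, Chrac-14, Chrac-16 or Ssrp.

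The genes whose peaks were most like that at HmgD and HmgZ were found by comparing, over the 4 thresholded lists, the log2 of the highest signal within 2 kb among 2040 protein-coding genes with a summit in all 4. The nearest was Atat, which encodes a tubulin acetyltransferase and shares its peak with Shc. Its signal was 670.0 in the main list, 249 in replicate 1 and 421 in replicate 2, at 123 bp upstream of its start, a log2 distance of 0.174. The ratio of replicate 2 to replicate 1 was 1.69, against 1.99 at site 4, a likeness that the distance itself selects for.

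The next 4 were further away. Trl, the gene of GAGA factor, had 725 (319 and 399) at 1542 bp downstream of its start, a log2 distance of 0.527, and with 7 summits it too held many sites. CG4004 had 746 (328 and 435), at a distance of 0.549. CG1317 had 626 (290.3 and 339.9), at 0.577, and shares its peak with CG9004, CG8993 and mRpL23. GstE13 had 639 (303 and 337), at 0.614, and shares its peak with Su(var)2-10 and CG18659. Their ratios of replicate 2 to replicate 1 ran from 1.11 to 1.33.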

How the data were processed

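Wdn-eGFP ChIP-seq peaks of 2 biological replicates in 1 group were analysed from the lists deposited by the authors on dm6, per the file headers. The aligner, the peak caller and the read depth are not given in the sources used here. For both replicates together there were a main list and a conservative list, and each replicate had a list of its own, each list being thresholded from a longer ranked list by IDR. The deposited signal value is the authors' own on a scale that no source describes, so it was ranked within a list and, between replicates, given beside the ratio over all peaks. The deposited score is a scaled IDR, capped at 1000, and the deposited ranked lists hold global IDR as its -log10 with a cap of 5. Further columns with per-sample values in the ranked lists were not used.

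Summits were placed on Ensembl release 115 (18277 genes, transposable element copies left out). A summit belonged to a gene within 2 kb of it and to a start within 500 bp. A counterpart in a replicate was the ranked peak with the nearest summit among those that overlapped by at least 1 base. Base composition was read from the RefSeq genome of the same build within 50 bp of each summit. With 1 group and a locus chosen from its signal, no test was made. The genes HmgD and HmgZ, the gene lists and the words were chosen with earlier results of these data known. The genes named were those overlapping the window, list members with a main-list summit, list members without one by name only, and the 5 genes of most similar signal over the 4 lists. Of the genes that share a peak with these, 1 is not reported here. The genes with at least as many summits as HmgZ were named after their values were seen. Dalao is listed under its annotation symbol Bap111. Alternatives were the conservative list, an IDR limit of 0.001, each replicate's own list, other windows, starts, overlaps and ranking populations. The counting of summits and the distances to starts were tested on simulated data, and the overlaps of peaks were not. Python 3.11.15, pandas 2.3.3, numpy 2.4.6, SciPy 1.17.1, Biopython 1.88 and matplotlib 3.10.9 were used.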

Additional observations from a re-analysis of the deposited data

How the results depend on the processing

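Of 48 alternative values, 35 stayed close to the reported one (within the replicate spread, or for counts within the ratio set for them). The number of locus peaks, 9, ranged from 3 to 7 when a replicate was left out and was 8 or 9 under the other alternatives, among them 8 with overlapping peaks counted as 1, an alternative chosen after seeing the data. The top percent of site 4 ranged from 0.557 to 3.06 when a replicate was left out. Its distance to the nearest HmgZ start ranged from -571 to -567 bp when a replicate was left out and turned to 4464 bp downstream when the annotated 5' end of HmgZ alone was used, since that end is the HmgZ-RD start. Its distance to the nearest HmgD start ranged from 1939 to 1943 bp. The number of HMG-box genes with a summit at a start, 7, was 4 when the conservative list was used, 3 with an IDR limit of 0.001 and 4 within 200 bp, and ranged from 2 to 4 when a replicate was left out. The number of chromatin protein genes within 2 kb, 11, was 7 with an IDR limit of 0.001 and ranged from 6 to 7 when a replicate was left out. No paired analysis was possible because there was 1 group and no comparison between groups. The read depth behind the signal values is unknown, so no counting error could be given for them, and with 2 replicates the SDs are themselves uncertain.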

Other observations

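The gene with the most main-list summits, CHES-1-like on X, had 12 within 2 kb, with a highest signal of 435, below the 687 of the HmgD and HmgZ locus. The summits with at least 8 neighbours there ran from 7697066 to 7707007 on X (dm6), and 1 of them had 11 neighbours within 10 kb. These values were singled out after they were seen.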
